A study of Mus musculus with 12 samples.

Results

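Enteroendocrine cells were followed through 10 genes, a list set by function: the granins Chga and Chgb, the transcription factor Neurod1, the peptide hormone genes Cck, Gcg, Sct, Gip, Sst and Tac1, and Tph1, which encodes the enzyme that starts serotonin synthesis. They were found by symbol, all 10 of 10, among the 48526 genes of each count file. The list is one of names and uses no threshold on the counts, but it was chosen with earlier results of these data known. RNA came from intestinal epithelial cells of 3-month-old female mice, which the titles call whole intestine and the labels' protocol places in the proximal small intestine, released with EDTA, in 2 control animals and 2 animals lacking both Kat2a and Kat2b (DKO), which encode related lysine acetyltransferases. The DKO animals received 4 daily intraperitoneal doses of tamoxifen at 100 mg/kg, and the controls received the ethanol and corn oil carrier on the same days. Cells were taken 2 days later. Each animal gave an input library and pulldowns with J2 and K1, antibodies to double-stranded RNA, 12 libraries in all. Genotype and tamoxifen changed together and cannot be told apart. The Cre driver and the alleles that the control and DKO animals carried are not given in the sources used here.

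Enteroendocrine cells are scattered hormone-secreting cells of the gut lining. They arise from crypt progenitors that switch on Neurog3 and then Neurod1, and they store peptides with granins in dense-core granules, where convertases and other enzymes cut and finish the prohormones. Subtypes have been named for their main product: K cells for Gip, I cells for Cck, S cells for Sct, D cells for Sst, L cells for Gcg, whose precursor yields GLP-1 in the gut, and enterochromaffin cells for serotonin, many of which also express Tac1, the substance P gene.

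Gene-assigned counts ranged from 10307281 to 11474107 in the input libraries, from 13308021 to 16139531 in the control pulldowns and from 2220291 to 5826361 in the DKO pulldowns. Kat2b gave 359 and 343 counts in control input and 118 and 114 in DKO input, and Kat2a gave 222 and 228 against 84 and 148. Both fell in input (Kat2b log2 fold change -1.51, SE 0.17, edgeR adjusted p = 0.000632; Kat2a -0.88, SE 0.23, adjusted p = 0.0205). All 8 epithelial markers examined were detected, with a summed level of 7171 to 7350 CPM in control input and 6546 to 7977 CPM in DKO input. CPM is the count of a gene relative to the library total after TMM scaling, in the usual unit of that name, computed within the 4 libraries of a kind. Labels describe the replicates as separate animals, 2 per group, so each SD below rests on 2 values.

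Per kilobase of annotated exon, Gip and Sst led the control input libraries. Gip stood highest at 77.5 ± 4.80 CPM per kb (SD, n = 2), followed by Sst at 47.3 ± 3.84. Chgb (30.9 ± 3.10), Cck (27.3 ± 1.44) and Sct (18.7 ± 1.98) formed the middle of the order. Chga lay at 11.99 ± 1.87, Gcg at 9.99 ± 0.133 and Tph1 at 2.62 ± 0.481 CPM per kb, and the lowest levels were those of Neurod1 (1.48 ± 0.0787) and Tac1 (1.09 ± 0.387). No pair of neighbours in this order overlapped between the control animals, though some came close, as Chgb (lower value 28.67) and Cck (higher value 28.33), and Neurod1 (lower value 1.423) and Tac1 (higher value 1.36). In DKO input Gip (89.1 ± 22.4) and Sst (74.6 ± 20.2) still led, but their ranges overlapped, as did those of Chgb and Sct, of Sct and Cck, and of Gcg and Neurod1. Gcg dropped from the seventh place to the eighth, behind Tph1 (6.70 ± 2.27 CPM per kb against 3.18 ± 0.581 for Gcg).

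In unselected RNA most of these genes were higher in DKO, and Gcg went the other way. With edgeR's quasi-likelihood test over 15088 genes, 6 of the 10 rose (Chgb, Neurod1, Cck, Sct, Sst and Tph1), 1 fell (Gcg), and Chga, Gip and Tac1 did not pass at an adjusted p of 0.05. Among all genes tested 35.9% passed, 18.8% as higher and 17.1% as lower. The median log2 fold change was 0.70 over the 10 genes, between -1.66 and 1.35, and 0.00 over all genes tested. In these bulk libraries fewer cells of a type and less RNA per cell cannot be told apart. Groups did not overlap for 8 of the 10, with DKO above control for 7 and below for 1, against 73.2% of all genes tested (36.4% above and 36.8% below). Without TMM scaling the 10 genes summed to 292 and 317 CPM in control input and 443 and 368 in DKO input (exact permutation p = 0.333, the smallest that 2 against 2 allows, two-sided). Without DKO animal 1, 4 of the 10 passed (Chgb, Sct and Tph1 as higher and Gcg as lower), where 29.9% of all genes tested did. DESeq2 called 5, these 4 and Sst, where it called 23.4% of all genes. In a fit of all 12 libraries together, 2 passed (Tph1 as higher and Gcg as lower), where 10.1% of all genes did.

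The granins are acidic proteins of the granule matrix. Chgb (ENSMUSG00000027350.8, chr2:132781278-132795079, plus strand) read 78.6 and 90.6 CPM in the control animals and 158.8 and 124.0 CPM in the DKO animals. Both DKO libraries lay above both controls, and Chgb rose by a log2 fold change of 0.74 (SE 0.16, adjusted p = 0.00938). Chga, the general marker of these cells (ENSMUSG00000021194.5, chr12:102554969-102565028, plus strand), read 29.4 and 36.7 CPM in control and 42.0 and 30.1 CPM in DKO. Here the groups overlapped (log2 fold change 0.12, SE 0.19, adjusted p = 0.645), and with scaling to library size only the sign turned (-0.02). Neurod1, a factor that drives hormone cell differentiation (ENSMUSG00000034701.9, chr2:79452521-79456751, minus strand), was low, with 3.88 and 4.19 CPM in control against 9.63 and 6.42 CPM in DKO. Neurod1 rose by 0.98 (SE 0.27, adjusted p = 0.0275), a call kept in 5 of 10 alternative fits. It was lost without DKO animal 1, without either control animal, with DESeq2 (adjusted p = 0.072) and with all 12 libraries (adjusted p = 0.392). Neurod1 shares 201 exonic bases with Cerkl on the same strand and 154 with the antisense gene Gm26755, so reads there could not be assigned to 1 gene. Cerkl had 0 to 9 counts and Gm26755 0 to 1 in any library.

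**Figure D1:**
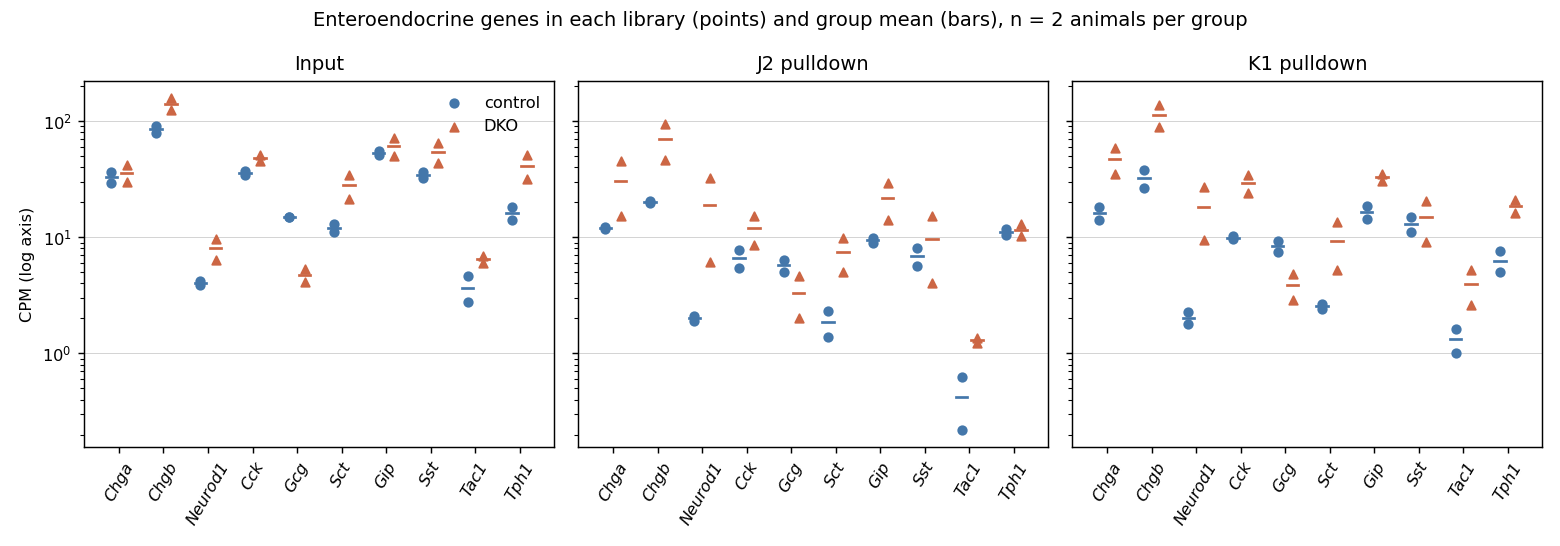
Level of the 10 enteroendocrine genes in CPM (log axis) in each input, J2 and K1 library, with blue circles for control, orange triangles for DKO and a bar at the mean of 2 animals. In input Gcg is the gene whose DKO points lie below control (5.36 and 4.13 against 14.8 and 15.1 CPM), while Tph1, Sct and Chgb points lie above.

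Gcg (ENSMUSG00000000394.15, chr2:62474530-62483650, minus strand) was the gene that fell. It gave 160 and 180 counts in control input and 54 and 47 in DKO input, or 14.8 and 15.1 CPM against 5.36 and 4.13 CPM. Both DKO animals lay far below both controls, and the replicates of each group lay close together. Gcg fell by a log2 fold change of -1.66 (SE 0.21, adjusted p = 0.00125) and passed as lower in 10 of 10 alternative fits, with values from -1.84 to -1.48. Sct, which encodes secretin, the trigger of pancreatic bicarbonate release (ENSMUSG00000038580.13, chr7:141278330-141279133, minus strand), moved the other way, from 12.9 and 11.1 CPM to 34.5 and 21.5 CPM (log2 fold change 1.21, SE 0.24, adjusted p = 0.00735). Sst, the gene of the inhibitory peptide somatostatin (ENSMUSG00000004366.3, chr16:23889573-23890958, minus strand), rose from 32.2 and 36.1 to 64.1 and 43.5 CPM (0.65, SE 0.19, adjusted p = 0.0321). Cck, whose product acts on gallbladder and exocrine pancreas (ENSMUSG00000032532.6, chr9:121489824-121495694, minus strand), had the smallest rise that passed, from 37.0 and 34.3 to 51.2 and 45.3 CPM (0.44, SE 0.13, adjusted p = 0.0306). Sst passed in 6 of 10 alternative fits and Cck in 4. Both were lost without DKO animal 1, without control animal 1, with library size only and with all 12 libraries, and Cck also without control animal 2 and with DESeq2 (adjusted p = 0.129). Gip, the incretin gene of K cells (ENSMUSG00000014351.12, chr11:96024545-96030831, plus strand), read 50.9 and 55.6 CPM in control and 72.1 and 50.3 CPM in DKO, with overlapping groups (0.20, SE 0.18, adjusted p = 0.415).

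The serotonin enzyme gene Tph1 (ENSMUSG00000040046.14, chr7:46644641-46672537, minus strand) had the largest rise of the 10 in input. It read 14.0 and 18.2 CPM in control input and 51.2 and 31.4 CPM in DKO input. The lower DKO animal was still well above the higher control. Tph1 rose by 1.35 (SE 0.25, adjusted p = 0.00536) and passed in 10 of 10 alternative fits, with values between 0.96 and 1.66. Ddc, the decarboxylase of the next step, which other gut epithelial cells also express, fell from 221 ± 33.4 to 84.1 ± 2.704 CPM (SD, n = 2; log2 fold change -1.40, SE 0.14, adjusted p = 0.000509). Tph1 counts per 100 Ddc counts, a measure free of scaling between libraries, were 7.11 and 7.46 in control input and 59.6 and 38.2 in DKO input. In K1 they were 3.83 and 3.91 against 11.3 and 28.0, and in J2 the groups overlapped (10.4 and 9.69 against 7.47 and 41.6). Tac1, the substance P precursor gene (ENSMUSG00000061762.12, chr6:7554879-7565834, plus strand), read 4.62 and 2.76 CPM in control and 6.06 and 6.86 CPM in DKO. The Tac1 groups did not overlap, but it did not pass (0.82, SE 0.30, adjusted p = 0.0687). It passed in 3 of 10 alternative fits, among them the 1 without control animal 1 (1.21, adjusted p = 0.032).

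RefSeq promoter windows on GRCm38, the 250 bases just upstream of the annotated start, are shown for 4 of these genes with different outcomes in input: Gcg, which fell, Sct and Tph1, which rose, and Gip, which did not pass. Capitals mark CANNTG, the E-box core bound by basic helix-loop-helix factors such as Neurod1, TGACG, which is part of the cyclic AMP response element, and TATAAA, each searched on both strands. Gcg lies at chr2:62483654-62483903 on the minus strand, Sct at chr7:141279134-141279383 on the minus strand, Gip at chr11:96024295-96024544 on the plus strand and Tph1 at chr7:46672538-46672787 on the minus strand.
Gcg: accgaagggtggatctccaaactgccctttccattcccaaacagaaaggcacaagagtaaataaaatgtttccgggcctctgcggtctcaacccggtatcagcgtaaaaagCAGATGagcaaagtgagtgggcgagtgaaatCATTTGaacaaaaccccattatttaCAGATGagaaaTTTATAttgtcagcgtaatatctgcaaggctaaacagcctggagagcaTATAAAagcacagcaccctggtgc
Sct: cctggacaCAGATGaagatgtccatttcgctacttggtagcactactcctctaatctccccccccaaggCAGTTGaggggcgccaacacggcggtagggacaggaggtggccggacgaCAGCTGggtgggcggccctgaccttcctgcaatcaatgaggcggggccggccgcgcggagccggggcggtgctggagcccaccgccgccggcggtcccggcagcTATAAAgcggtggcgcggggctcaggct
Gip: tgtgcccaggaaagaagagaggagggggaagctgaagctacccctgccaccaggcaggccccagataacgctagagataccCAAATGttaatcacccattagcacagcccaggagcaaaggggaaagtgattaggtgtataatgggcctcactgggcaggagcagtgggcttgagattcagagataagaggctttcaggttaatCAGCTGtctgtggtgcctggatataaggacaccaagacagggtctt
Tph1: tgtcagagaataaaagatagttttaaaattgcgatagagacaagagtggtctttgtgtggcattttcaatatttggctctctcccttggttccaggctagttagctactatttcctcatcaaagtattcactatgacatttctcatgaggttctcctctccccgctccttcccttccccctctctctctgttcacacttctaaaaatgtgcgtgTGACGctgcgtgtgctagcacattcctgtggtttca
CANNTG occurred 3 times in the Gcg window, at 139, 108 and 83 bases before the start, 3 times in Sct, 2 times in Gip and 0 times in Tph1. TGACG occurred once among these 4 windows, in Tph1 at 36 bases before the start, and TATAAA at 72 and 24 bases in Gcg and at 28 in Sct. RefSeq holds another Tph1 start inside the annotated gene, whose window, not shown, has TGACG 3 times, at 248, 47 and 21 bases. Of 32851 promoter windows of this length, 66.2% held CANNTG, 17.8% TGACG and 12.4% TATAAA. These matches describe letters in a window. No binding was measured here.

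Gcg was also set against other genes of the list within each library, which needs no scaling. Gcg counts per 100 Chgb counts were 18.8 and 16.6 in control input and 3.38 and 3.34 in DKO input. In J2 they were 25.8 and 31.4 against 2.17 and 9.93, and in K1 28.0 and 24.5 against 3.54 and 3.21. All 6 DKO libraries lay below all 6 control libraries, though these come from 4 animals. Chgb itself rose in input (log2 fold change 0.74) and K1 (1.82), and read higher in J2 (1.81) without passing. The ratio therefore holds both changes. Gcg by itself passed in input but not in J2 (edgeR adjusted p = 0.355) or K1 (adjusted p = 0.114). For the ratio each kind gave an exact permutation p of 0.333, the smallest possible with 2 against 2 (two-sided). Against Gip, which did not pass in input, Gcg gave 29.0 and 27.1 counts per 100 Gip counts in control input and 7.44 and 8.22 in DKO input. As a share of the 10 genes' counts, Gcg took 5.31% (exact Clopper-Pearson 95% interval 4.54 to 6.18) and 4.95% (4.26 to 5.70) in the control animals. In DKO it took 1.08% (0.815 to 1.41) and 1.14% (0.837 to 1.51). The intervals cover counting error only, and the total of the 10 genes itself read higher in DKO input.

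**Figure D2:**
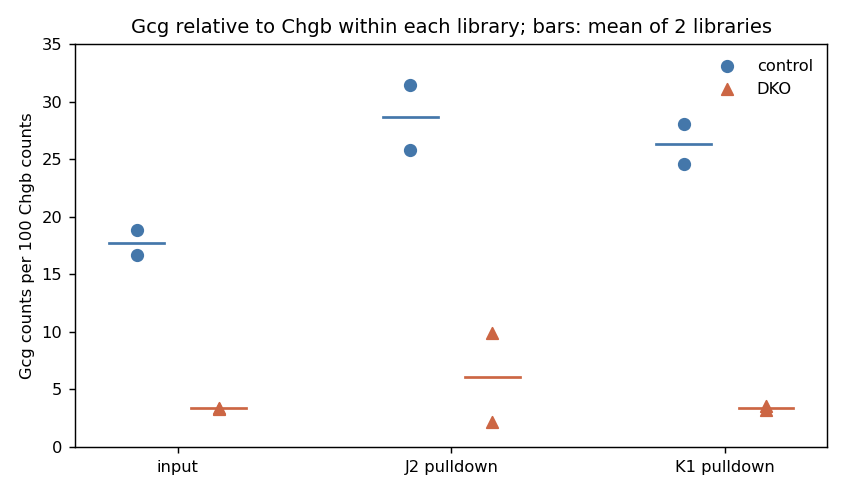
Gcg counts per 100 Chgb counts in each library, by kind of library, with blue circles for control, orange triangles for DKO and a bar at the mean of 2 libraries. Control libraries lie between 16.6 and 31.4 and DKO libraries between 2.17 and 9.93. Chgb itself read higher in DKO in each kind, so the ratio holds both changes.

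Other genes of enteroendocrine cells were followed in lists by role. Coordinates above and exon lengths are those of GENCODE M21 on GRCm38. Among secretory granule and prohormone processing genes, 17 of 19 were tested in input, 5 rose, no other had an unadjusted p under 0.05, and the median was 0.69. Over all genes tested 35.9% passed, 18.8% as higher and 17.1% as lower, and 7017 of 15088 had an unadjusted p under 0.05. Cpe, carboxypeptidase E, which trims prohormone fragments, rose from 9.12 ± 0.605 to 88.4 ± 19.3 CPM (SD, n = 2; log2 fold change 3.28, SE 0.19, adjusted p = 6.77e-05). Pam, which amidates peptides such as Cck and secretin, rose from 25.2 ± 1.02 to 73.1 ± 3.54 CPM (1.53, SE 0.12, adjusted p = 0.000193). Vgf, a granin-like precursor, rose from 0.612 ± 0.0814 to 5.15 ± 1.56 CPM (3.04, SE 0.39, adjusted p = 0.00124), and Ptprn, a granule membrane protein, rose from 2.28 ± 0.0889 to 8.38 ± 3.88 CPM (1.86, SE 0.37, adjusted p = 0.0077). The fifth, Kif5c, had 3 and 3 counts in control and 16 and 11 in DKO. Kif5c and Vgf (6 and 8 counts in control) met the count filter through their DKO libraries only. Resp18, Syp and Pcsk1n, which did not pass, also needed their DKO libraries to meet it. The number tested and the median therefore depend on that filter. The prohormone convertase Pcsk1, which cuts Gcg and Cck precursors, read 8.22 ± 0.140 and 11.2 ± 2.34 CPM and did not pass (adjusted p = 0.159), and Scg2 did not pass either (5.12 ± 0.449 and 6.30 ± 1.07 CPM).

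Factors that specify enteroendocrine cells came next. Of 18 listed, 14 were tested in input, 1 rose and 1 fell, with a median of 0.03, where 35.9% of all genes tested passed. Foxa1, which acts in goblet and enteroendocrine lineages, rose from 14.1 ± 1.81 to 33.2 ± 3.17 CPM (log2 fold change 1.23, SE 0.16, adjusted p = 0.00127), and Sox4, active early in the lineage, fell from 14.5 ± 0.413 to 5.40 ± 0.198 CPM (-1.42, SE 0.19, adjusted p = 0.00153). Neurog3, the factor that commits progenitors and acts upstream of Neurod1, had 16 and 16 counts in control and 9 and 14 in DKO and did not pass (adjusted p = 0.443). Of 14 other hormone and transmitter genes, 9 were tested, 3 rose (Adm, Pyy and Slc18a1) and 1 fell (Ddc), with a median of 0.61. Adm, with 17 and 7 counts in control and 58 and 91 in DKO, needed its DKO libraries to meet the count filter. Pyy, a product of L cells as Gcg is, rose from 3.16 ± 0.0274 to 6.99 ± 3.17 CPM (1.13, SE 0.35, adjusted p = 0.0408). Slc18a1, the vesicular monoamine transporter of enterochromaffin cells, rose from 18.9 ± 1.85 to 31.7 ± 1.20 CPM (0.75, SE 0.14, adjusted p = 0.00608).

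Nutrient sensing and receptor genes were sparse, and their calls stand beside 35.9% of all genes tested in input. Of 16 sensors and channels 8 were tested, and Abcc8, a subunit of the ATP-sensitive potassium channel (log2 fold change 1.41, SE 0.28, adjusted p = 0.00752), and Ffar3, a short-chain fatty acid receptor (1.31, SE 0.37, adjusted p = 0.0305), rose. Trpa1, an irritant-sensing channel of enterochromaffin cells, fell from 4.86 ± 0.343 to 2.17 ± 0.540 CPM (-1.15, SE 0.29, adjusted p = 0.0187), while Tph1 rose in the same libraries. Of 17 receptors of the 10 genes' products, 4 were tested and 1, the somatostatin receptor gene Sstr1, rose (1.13, SE 0.36, adjusted p = 0.0433). Cckar, Cckbr and Tacr3 had 0 counts in every input library.

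**Figure D3:**
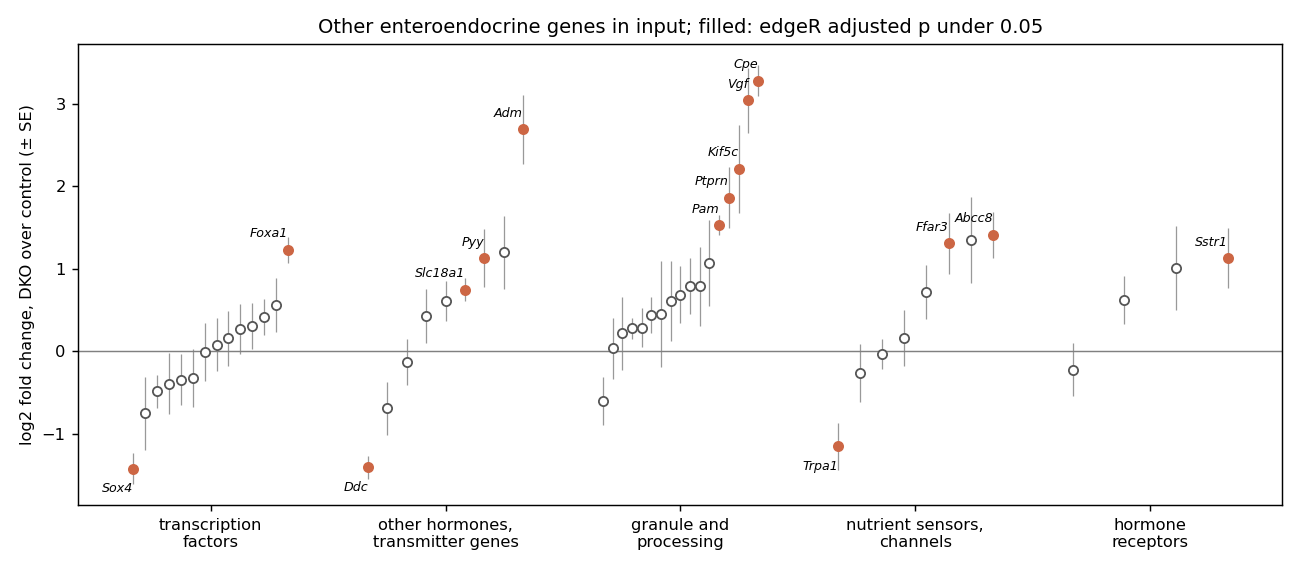
Log2 fold change with its SE, DKO over control in input, for each tested gene of 5 enteroendocrine lists, ordered by value within a list, with filled points for an edgeR adjusted p under 0.05. The granule list holds 5 filled points, all above 0, where 35.9% of all genes tested passed. Control counts were 3 and 3 for Kif5c and 6 and 8 for Vgf, which met the count filter through DKO only. Resp18, Syp, Pcsk1n and Adm were among the genes that needed DKO libraries to meet it. The transcription factors lie on both sides of 0.

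Markers of other cell types were read in the same input libraries, where 35.9% of all genes tested passed (18.8% as higher and 17.1% as lower). Of 11 enteric neuron markers, 4 were tested and Ret and Tubb3 rose. Tubb3, with 4 and 1 counts in control and 25 and 27 in DKO, met the count filter through its DKO libraries only. The summed level of the 11 was 5.86 to 7.95 CPM in control and 36.2 to 38.6 CPM in DKO. Ret made up most of it (3.57 ± 0.436 and 29.1 ± 0.151 CPM), and Uchl1 and Vip were at 0 in all 4. Tuft cell markers summed to 70.3 to 79.7 CPM in control and 171.7 to 178.7 CPM in DKO, with 4 of 10 listed higher, among them Trpm5 (1.97, SE 0.20, adjusted p = 0.000483). Mast cells also express Tph1. Their 12 markers summed to 14.1 to 17.1 CPM in control and 7.85 to 13.02 CPM in DKO, and Tpsab1 was at 0 in all 4. Kit, which fell, made up most of the control sum (13.15 ± 2.13 and 4.71 ± 1.18 CPM). The mast cell protease genes went the other way, at few counts. Mcpt1, which met the count filter through its DKO libraries only, rose from 1 and 6 counts to 11 and 45. Mcpt2, not tested, had 0 and 1 counts in control and 3 and 21 in DKO. The sum therefore does not give the direction of mast cell RNA. Goblet markers had 3 of 8 higher (Clca1, Spink4 and Muc2), Paneth markers 2 higher and 2 lower of 8, and enterocyte markers 3 of 10 lower (Lct, Sis and Fabp2). Of 10 markers of acinar pancreas, 1 was tested, Cela1, which did not pass (adjusted p = 0.424), and Prss1 and Amy2a5 were at 0 in all 4. The part of these shifts in the enteroendocrine values was not tested.

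In the J2 pulldown the same 2 by 2 comparison was made on shallower DKO libraries. Of the 10 genes 9 were tested, since Tac1 (10, 3, 6 and 4 counts) was under the count filter. With edgeR 0 passed, against 12.2% of all genes tested (6.02% as higher and 6.16% as lower). At an unadjusted p of 0.05 there were 4, where 4670 of 13181 genes reached that level. With DESeq2 there were 2, Chgb and Neurod1, where 18.4% of all genes passed. The median log2 fold change was 1.22 over the 9, and 0.03 over all genes tested. Among the 9 tested genes DKO lay above control for 6, below for 1 (Gcg) and overlapped for 2 (Sst and Tph1), where 66.7% of all genes tested did not overlap. Leaving out DKO animal 2, the shallower one, gave 8 calls (7 higher and Gcg lower), where 54.0% of all genes passed. Leaving out DKO animal 1 gave 3 (Chgb, Neurod1 and Sct), where 59.0% passed. A single fit of all 12 libraries gave 4, with Gip beside those 3 (36.1% of all genes), and dropping the count filter gave 3 (16.9%).

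Single genes in J2 differed between the DKO animals as well. Chgb read 19.6 and 20.3 CPM in control and 93.6 and 46.6 CPM in DKO (log2 fold change 1.81, SE 0.43, adjusted p = 0.053). Neurod1 read 2.12 and 1.89 CPM in control and 6.10 and 32.1 CPM in DKO (3.23, SE 0.85, adjusted p = 0.0625). DKO animal 2 was the higher one. There Neurod1 had 104 counts, more than in any of the other 11 libraries, and took 21.5% of the 10 genes' counts (exact Clopper-Pearson 95% interval 17.9 to 25.4). In the J2 library of DKO animal 1 it took 2.73% (1.81 to 3.95), and in the control J2 libraries 2.98% and 2.33%. Gcg had 81 and 88 counts in control and 9 and 15 in DKO (5.05 and 6.39 against 2.03 and 4.63 CPM; log2 fold change -0.80, SE 0.57, adjusted p = 0.355). Tph1, which rose in input, read 10.4 and 11.8 CPM in control J2 and 10.2 and 12.97 CPM in DKO J2 (0.06, SE 0.39, adjusted p = 0.929).

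In the K1 pulldown 7 of the 10 rose (Chga, Chgb, Neurod1, Cck, Sct, Gip and Tph1), and 0 passed as lower with edgeR or DESeq2, Gcg with an unadjusted p of 0.0458 being the 1 that was lower at that level. Gcg passed as lower in K1 in 4 of 10 alternative fits, 1 of them without DKO animal 1. Among all genes tested 27.1% passed, 13.2% as higher. The median was 1.55, against -0.02 over all genes tested. DKO lay above control for 8, below for Gcg, and overlapped for Sst, where 67.0% of all genes tested did not overlap. Without control animal 1 the count was 1 (Neurod1), where 9.03% of all genes passed, and without control animal 2 it was 3 (Chga, Chgb and Neurod1), where 10.1% did. The counts of the 10 genes summed to 1740 and 1932 in control K1 but 1509 and 521 in DKO K1.

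Chga, which did not pass in input, read 14.0 and 18.4 CPM in control K1 and 58.9 and 34.97 CPM in DKO K1, and rose by 1.55 (SE 0.34, adjusted p = 0.0168). Gip, also without a call in input, rose from 14.2 and 18.7 to 35.1 and 30.7 CPM (1.00, SE 0.29, adjusted p = 0.0408). Neurod1 had the largest value, from 2.27 and 1.78 to 9.44 and 26.8 CPM (3.10, SE 0.56, adjusted p = 0.0092), and again DKO animal 2 was the higher one. Chgb rose from 26.4 and 38.1 to 136.4 and 89.6 CPM (1.82, SE 0.32, adjusted p = 0.00866). Cck rose by 1.56 (SE 0.31, adjusted p = 0.0128), Sct by 1.93 (SE 0.51, adjusted p = 0.0308) and Tph1 by 1.55 (SE 0.37, adjusted p = 0.0227). Gcg read 7.41 and 9.34 CPM in control and 4.83 and 2.87 CPM in DKO, with both DKO libraries below both controls (-1.05, SE 0.44, adjusted p = 0.114). Sst read 11.1 and 14.9 CPM in control and 20.6 and 9.10 CPM in DKO, so that its DKO values enclosed the controls (0.25, SE 0.42, adjusted p = 0.699).

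**Figure D4:**
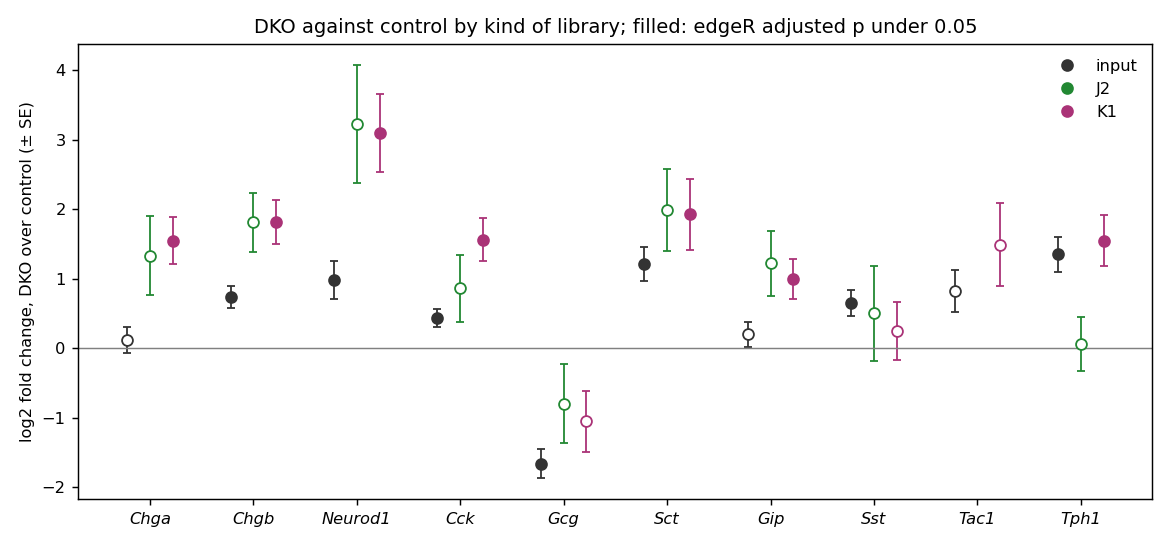
Log2 fold change with its SE, DKO over control, for each gene in input (black), J2 (green) and K1 (purple), with filled points for an edgeR adjusted p under 0.05. Gcg lies below 0 in all 3 kinds, at -1.66, -0.80 and -1.05, filled in input only, and Neurod1 lies at 0.98, 3.23 and 3.10.

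Single genes of the granule list passed in the pulldowns as well. In K1, 13 of its 19 genes were tested, 6 rose (Cpe, Vgf, Scg5, Pcsk1n, Pam and Scgn) and 1 fell (Cplx2), with a median of 1.54. Among all genes tested 27.1% passed, 13.2% as higher. Vgf, Scg5 and Scgn met the count filter through the shallow DKO libraries only, so the count and median depend on that filter. Scg5 had 7 and 6 counts in control and 10 and 5 in DKO, and Scgn 5 and 6 against 6 and 6. In J2, 10 were tested, Vgf and Cpe rose and Rab3c fell, with a median of 0.58, where 12.2% of all genes passed. Cpe stood at 3.19 ± 0.628 CPM in control J2 and 70.2 ± 59.0 CPM in DKO J2 (SD, n = 2; log2 fold change 4.46, SE 0.76, adjusted p = 0.0326). Abcc8 rose in both pulldowns (J2 3.07, SE 0.62, adjusted p = 0.0416; K1 2.21, SE 0.49, adjusted p = 0.0179), and Trpa1 fell in K1 (-2.34, SE 0.68, adjusted p = 0.0415), from 60 and 49 counts to 2 and 2. In J2, Abcc8 (18 and 8 counts in control, 23 and 31 in DKO) needed its DKO libraries to meet the filter. Of 11 transcription factors tested in K1, 2 rose (Atoh1 and Rfx6) and 1 fell (Rfx3). Rfx6 (17 and 12 counts in control, 12 and 8 in DKO) also needed its DKO libraries to meet the filter. Ret rose in J2 and in K1 as it did in input.

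Set against the input of the same animals, hormone RNA was less abundant in the pulldowns of control mice. These pulldown comparisons share their input libraries between J2 and K1, and each was fitted over the 8 libraries of an antibody. In control J2, 6 of the 10 were lower than input, and all 10 values lay below it, where 29.8% of all genes tested passed and 14.6% as lower. The median was -1.83, against -0.07 over all genes tested. The largest depletion was that of Tac1 (-2.70, SE 0.51, adjusted p = 0.00763) and Sct (-2.34, SE 0.42, adjusted p = 0.0066), followed by Gip (-2.13), Cck (-2.07), Sst (-1.94) and Chgb (-1.71). Tph1 was nearly level with input (-0.17, SE 0.30, adjusted p = 0.689). In control K1, 6 were lower and all 10 values lay below input (39.8% of all genes tested passed, 20.1% as lower and 19.7% as higher), with a median of -1.05 against 0.00. They were Sct (-1.89), Cck (-1.50), Gip (-1.35), Chgb (-1.05), Sst (-1.05) and Tph1 (-1.02, SE 0.30, adjusted p = 0.0211). With the animal as a block, Chga (-0.69, SE 0.19, adjusted p = 0.0096) and Tac1 (-1.13, SE 0.37, adjusted p = 0.0225) passed too, where 45.8% of all genes did. Markers of other epithelial cells also lay below input. In control J2, 7 of 8 Paneth (median -2.63), 3 of 8 goblet (-1.31) and 3 of 10 enterocyte markers (-1.26) passed as lower. Epithelium and tuft markers had medians of -0.16 and -0.17, with 0 lower and 1 higher in each list. In control K1 the Paneth, goblet and enterocyte medians were -2.06, -0.52 and -1.0. With 1 control animal left out, whichever it was, 0 of the 10 passed with J2 and 0 with K1, where 0.0% of all genes passed with J2 and 1.7% to 2.0% with K1. Without DKO animal 1, 9 passed with J2 and 10 with K1, where 59.9% and 54.8% of all genes did, so these counts moved with those over all genes.

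In DKO mice the same fits gave fewer calls, a contrast tested separately as an interaction. With J2, 5 were lower than input (Cck -1.61, Sct -1.58, Sst -2.04, Tac1 -1.92 and Tph1 -1.48), where 25.7% of all genes tested passed and 13.4% as lower, and the median was -1.28 against 0.10. Neurod1 lay above input but did not pass (1.55, SE 0.61, adjusted p = 0.0926). With the animal as a block Sct did not pass (-1.57, SE 0.45, adjusted p = 0.0513) and Gip did (-1.17, SE 0.26, adjusted p = 0.0276), where 21.3% of all genes passed. With K1, Sst (-1.55), Sct (-1.25) and Tph1 (-0.98) were lower and Neurod1 was higher (1.27, SE 0.41, adjusted p = 0.036), where 35.6% of all genes tested passed, 21.0% as lower and 14.6% as higher. The median was -0.57, against -0.14. The block added Chga as higher (0.57, SE 0.20, adjusted p = 0.0382) and Gip as lower (-0.69, SE 0.20, adjusted p = 0.0143), where 39.8% of all genes passed. Leaving out either control animal left 0 calls with J2 (1.98% and 2.44% of all genes passed) and 1 with K1, Sst (17.8% and 18.4%). Leaving out DKO animal 1 gave 9 with J2 (46.0%), and a fit of all 12 libraries gave 0 with K1 (23.3%).

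By animal, all 10 genes lay below input in both control animals with both antibodies. In DKO animals 1 and 2 it was 9 and 8 of 10 with J2, and 6 and 8 of 10 with K1. Chga in K1 lay at -0.72 and -0.65 log2 CPM relative to input in the control animals and at 0.77 and 0.31 in the DKO animals. The DKO values were on the other side of 0. Neurod1 lay at -0.40 and -0.83 in control K1 and at 0.25 and 2.13 in DKO K1, and with J2 at -0.48 and -0.72 against -0.21 and 2.57. For Tph1 with J2 the order was the reverse, -0.07 and -0.25 in control and -1.87 and -0.97 in DKO. Its groups did not overlap with J2, whereas with K1 they did (-1.11 and -0.91 against -1.38 and -0.47).

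**Figure D5:**
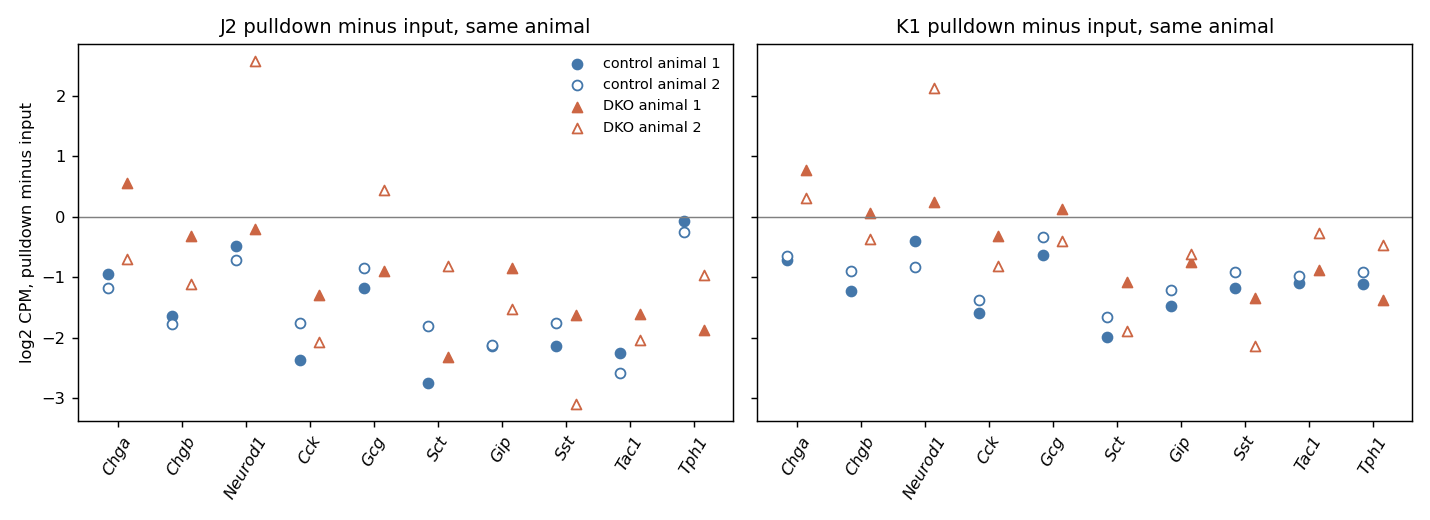
Log2 CPM in the pulldown minus that in the input of the same animal, for J2 (left) and K1 (right), with circles for the control animals and triangles for the DKO animals, filled for animal 1 and open for animal 2. Every control point lies below 0, and Neurod1 in DKO animal 2 stands at 2.57 and 2.13.

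The difference of these differences, DKO minus control, was tested as an interaction. With J2, edgeR called 0 of the 10, where 2.71% of all genes tested passed (0.772% as higher and 1.94% as lower). At an unadjusted p of 0.05 there were 2, Neurod1 (2.19, SE 0.88, adjusted p = 0.166) and Tph1 (-1.30, SE 0.43, adjusted p = 0.117). Among all genes tested 4120 of 15923 reached that level. DESeq2 called 0, where it called 13.1% of all genes. Without the count filter Neurod1 and Tph1 passed, where 8.46% of all genes did. With K1, edgeR called 0 of the 10, where 5.47% passed (1.37% as higher and 4.1% as lower). At an unadjusted p of 0.05 there were 4: Neurod1 (1.91, SE 0.60, adjusted p = 0.0909), Chga (1.31, SE 0.42, adjusted p = 0.0961), Cck (1.00, SE 0.32, adjusted p = 0.0998) and Chgb (0.94, SE 0.40, adjusted p = 0.194). Among all genes tested 3736 of 15908 reached that level. DESeq2 called Cck and Neurod1, where it called 9.32% of all genes. With the animal as a block, Chga (1.25, SE 0.28, adjusted p = 0.0106), Neurod1 (1.85, SE 0.56, adjusted p = 0.0423) and Cck (0.96, SE 0.29, adjusted p = 0.0448) passed with K1. Among all genes tested 1912 of 15908 passed there, against 870 in the main fit. The same block with J2 called 0 of the 10 and 0 of 15923 genes. The median difference over the 10 was 0.80 with J2, against 0.00 over all genes tested, and 0.65 with K1, against -0.20. Without DKO animal 1, J2 gave 4 calls (Chgb, Gcg, Neurod1 and Sct as higher), where 41.3% of all genes passed, and K1 1 (Neurod1), where 22.7% did. Without DKO animal 2, J2 gave 4 (Chga, Chgb and Gip as higher, Tph1 as lower), where 27.6% passed, and K1 2 (Cck and Chga), where 10.1% did.

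Across the 12 libraries, which come from 4 animals and differ in kind and depth, Chgb followed Chga most closely among the 10 (Pearson r = 0.906 of log2 CPM), ahead of Gip (0.778) and Cck (0.758). Sct (0.581), Tac1 (0.579) and Sst (0.575) came next, then Tph1 (0.424) and Neurod1 (0.356), and Gcg ran against it (-0.337). Among 9376 genes ranked, Chgb took place 31. The genes closest to Chga were Smu1 (0.958), H2-K1 (0.955), Anxa4, Anxa11 and Slc12a9 (0.951 each). These are descriptions over libraries that share animals.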

How the data were processed

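Input, J2 and K1 RNA of 4 mice was sequenced as stranded, ribosomal-RNA-depleted libraries with molecular identifiers, per the labels' protocols. The deposited values are whole-number counts per gene, 1 file per library, made without strand per the labels. The submitters' processing notes name STAR 2.7.10b, UMI-tools 1.1.4, HTSeq 2.0.2 and the builds mm10 and GRCm38. The annotation version is not given in the sources used here. Closing lines that name no gene (18.7% to 61.2% of the listed reads, highest in K1 of DKO animal 2, of which 46.7 points were reads aligned to several places) entered neither library sizes nor tests. Symbols came from GENCODE M21, which matched 48144 of 48526 identifiers without the version suffix. The list of 10 genes and the pathway and marker lists were chosen with earlier results of these data known.

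The main test was edgeR's quasi-likelihood test (edgeR 4.0.16, R 4.3.3) after TMM scaling and filterByExpr (minimum count 10), with Benjamini-Hochberg adjustment over all genes tested and a threshold of 0.05. Input, J2 and K1 each had their own fit of 4 libraries for DKO against control. Pulldown against input and its difference between genotypes were fitted per antibody over 8 libraries. These main fits used group means without a term for the animal, so they left the pairing out. The replicate block added that term. SE is the log2 fold change over the root of the F statistic. Log2 CPM used a prior count of 2. Alternatives were DESeq2 1.42.0 as a test and its size factors, library size only, no filter, a replicate block, all 12 libraries, and each animal left out. The scripts were tested on simulated data. Labels tie input and pulldowns to an animal. Differences between replicates correlated across genes at 0.328 to 0.625 between the kinds of library of a genotype, so the animal pairs pulldown with input. DKO and control animals share only a number. Named genes were the 10, Kat2a, Kat2b, up to 5 genes per list with the smallest adjusted p in input and up to 2 in each other comparison, and the 5 most like Chga by Pearson r over 12 libraries (mean of at least 50 counts). Neurog3, Pcsk1, Scg2 and further passing list members in K1 were chosen after their values were seen. Near-identical transcripts (97% over at least 100 bases) were sought with blastn 2.17.0+, and for the 10 genes only the overlaps of Neurod1 were found.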

Additional observations from a re-analysis of the deposited data

How the results depend on the processing

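Of 890 values of single genes under alternatives, 677 kept direction and side of the threshold, 95 came to pass, 88 no longer passed and 30 turned direction. The cause was not tested. A fit of all 12 libraries gave 2 calls among the 10 genes in input, 4 in J2 and 0 for K1 against input in DKO, and 1675 and 5984 genes for DKO against control in input and J2 (5421 and 1606 in the fits of 4) and 898 and 59 genes for the differences of enrichment in J2 and K1 (432 and 870). The fit of all 12 tested 16582 genes, of which 3864 passed for K1 against input in DKO. The main fits tested 15088 in input, 13181 in J2, and 15923 and 15908 for the J2 and K1 differences. Dropping the count filter gave 3 calls in J2 and 2 and 2 for the differences, with 4273 of 25232, 2453 of 29004 and 1763 of 28702 genes. DESeq2 gave 2 calls in J2 and 2 for the K1 difference, with 2751 of 14959 and 1223 of 13121 genes. For the J2 difference it gave 1814 of 13821 genes. Library size alone gave 1 call in J2, where 1364 of 13181 genes passed, and 669 of 15923 genes for the J2 difference. DESeq2 size factors gave 523 of 15908 genes for the K1 difference. The replicate block gave 2 calls in J2, where the number pairs no animals and 2262 of 13181 genes passed. The block gave 3 calls for the K1 difference, with 1912 of 15908 genes, and 0 of 15923 genes for the J2 difference.

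With an animal left out, the lone animal is assumed to vary like the other group. Calls among the 10, and genes called, then ranged over 4 to 8 and 3615 to 6226 in input, 0 to 8 and 177 to 8635 in J2, 1 to 8 and 1149 to 5819 in K1. Against input they ranged over 0 to 9 and 0 to 10139 (J2, control), 0 to 9 and 337 to 7791 (J2, DKO), 0 to 10 and 281 to 9189 (K1, control), 1 to 5 and 3005 to 5970 (K1, DKO). For the differences they were 0 to 4 and 0 to 6990 (J2), 0 to 2 and 0 to 3802 (K1).

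Direction turned under library size alone for Chga in input (-0.02), Sst in K1 (-0.16), Chga in J2 against input in DKO (-0.35), Gcg in K1 against input in DKO (-0.36) and the K1 difference of Tph1 (-0.03). Without the filter it turned for Tph1 in J2 (-0.13) and Chga in J2 against input in DKO (-0.07). Tph1 in J2 also turned with DESeq2 (-0.03) and with all 12 libraries (-0.01), and under the block Chga in J2 (-0.03) and Gcg in K1 (-0.06) against input in DKO. With an animal left out, DKO against control ranged from -0.13 to 0.34 for Chga and -0.08 to 0.43 for Gip in input, from -0.09 to 0.16 for Tph1 and -0.84 to 1.23 for Sst in J2, and from -0.55 to 0.73 for Sst in K1. Against input in DKO, J2 ranged from -0.94 to 0.31 for Gcg, -0.84 to 0.57 for Chga and -0.21 to 2.47 for Neurod1, and K1 from -0.50 to 0.13 for Gcg and -0.45 to 0.06 for Chgb. The J2 difference ranged from -0.04 to 0.76 for Cck and -1.21 to 0.32 for Sst, and the K1 difference from -0.38 to 0.49 for Tph1 and -0.10 to 0.80 for Sct.

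Scaling to library size alone moved the share of called genes that were higher from 52.4% to 42.1% in input, 49.4% to 32.7% in J2 and 48.6% to 27.4% in K1. Against input it moved from 51.1% to 34.7% (J2, control), 47.6% to 21.1% (J2, DKO), 49.6% to 35.9% (K1, control) and 41.1% to 22.3% (K1, DKO), and for the differences from 28.5% to 10.5% (J2) and 25.1% to 13.2% (K1; 39.2% with DESeq2 size factors). The median of all genes moved with it, from -0.00 to -0.13 in input, 0.03 to -0.06 in J2 and -0.02 to -0.39 in K1. Depth limits the DKO pulldowns most: Gcg had 9 and 15 counts in J2 and 22 and 6 in K1, and Tac1 6 and 4 and 12 and 11.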
